A study of Canis lupus familiaris with 10 samples.

Results

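miR-155 is a microRNA that is induced when B cells are activated. It was taken from the deposited table by its name, cfa-miR-155, which matched 1 of the 320 miRNAs listed, and all 10 libraries were used. The libraries hold small RNA of frozen canine lymph nodes, 6 of them with diffuse large B-cell lymphoma (DLBCL1 to DLBCL6) and 4 healthy (Healthy2 to Healthy5), each from a different dog. The DLBCL nodes belonged to patients and were removed by surgical biopsy under anesthesia, and the tumors were of B cell type by immunohistochemistry. The healthy nodes came from purpose-bred research dogs, young female hound crosses that were euthanized in surgical teaching courses, while the patients were of both sexes and several breeds. The labels name no treatment and no age for either group, and the study gives ages for the healthy dogs only. Origin, breed and sampling follow the diagnosis, sex does so in part, since all the healthy dogs were female, and age may as well. The parts of these features in any difference cannot be told apart from that of the lymphoma.

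MicroRNAs are short RNAs that pair with messenger RNAs and lower their stability or translation. The miR-155 precursor is cut from the transcript of a non-coding gene that B cell receptor, Toll-like receptor and NF-kB signalling switch on, and the mature miRNA is needed for a normal germinal centre reaction. Among its known targets are the messenger RNAs of SHIP1 (INPP5D), a phosphatase that restrains B cell receptor signalling, and of the transcription factor PU.1. Forced expression of miR-155 in mouse B cells leads to lymphoma, and in people it is higher in DLBCL of the activated B cell type than in that of the germinal centre type. In the annotation of UU_Cfam_GSD_1.0 the canine gene MIR155 lay between a pseudogene (LOC100684297) and MRPL39, with no other miRNA gene beside it. The name in the table does not give the arm of the precursor.

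The libraries held between 10686441 and 34709421 reads on miRNAs. The DLBCL libraries had 10686441 to 25784861 and the healthy libraries 30432969 to 34709421. miR-148a alone took 31.3 ± 7.80% (SD) of the miRNA reads of the 6 DLBCL libraries and 61.0 ± 9.67% of those of the 4 healthy libraries, without overlap. DLBCL1, DLBCL2, DLBCL3 and DLBCL5 had a higher share of bases with a Phred score of at least 30 (Q30) in the read statistics than the other 6 libraries, so that all 4 healthy libraries were in the lower Q30 group with DLBCL4 and DLBCL6. Among markers of other cell types, 2 of the 3 of red blood cells (miR-451 and miR-486) passed the edgeR test as higher in DLBCL, beside 3.64% of all 247 miRNAs tested, and the 3 summed to 5171 to 35567 CPM in DLBCL and 808 to 1070 CPM in healthy nodes. Of 10 fits that each left out 1 library, miR-451 passed in 10 and miR-486 in 5, the latter at log2 fold changes of 3.13 to 5.35. With DESeq2, miR-451 and miR-144 passed and miR-486 did not. None of the 5 miRNAs of stroma and vessel, miR-223 of myeloid cells, the 3 tested miRNAs of skeletal muscle and the 6 tested miRNAs of epithelium and exocrine pancreas passed the edgeR test, although those of epithelium and exocrine pancreas summed to 46.0 to 677 CPM in DLBCL and 933 to 1961 CPM in healthy nodes. Most of that sum was miR-216b, at a mean of 1051 CPM in healthy nodes and 147 CPM in DLBCL. With DESeq2, miR-216b (-2.88) and miR-217 (-3.15) passed as lower in DLBCL. The list did not move as one, since the edgeR log2 fold change was -2.57 for miR-216a, -0.18 for miR-141, 1.07 for miR-200c and 2.04 for miR-375. Of the leukocyte markers, miR-142 did not pass and miR-150 was lower. The part of these features in the values of miR-155 was not tested except where stated.

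miR-155 was abundant in every node, and its level did not separate DLBCL from healthy nodes. With the TMM scaling described below, the healthy libraries lay in the middle of the DLBCL libraries. On that scale the highest and the lowest values of the series were both in DLBCL. As a share of all miRNA reads, 4 DLBCL libraries lay above every healthy library and the lowest value was in Healthy2.

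The reads of miR-155 numbered 175635, 83516, 111317, 185925, 183659 and 147644 in DLBCL1 to DLBCL6. In Healthy2 to Healthy5 they numbered 75629, 193287, 131034 and 139487. At this depth the counting error was 0.227% to 0.364% of the count, far below the spread between dogs. By reads within a library, miR-155 was the 11th most abundant miRNA in DLBCL1 and the 25th in DLBCL2, and it ranked 15th to 18th in the 4 healthy libraries. It was therefore one of the major miRNAs of healthy nodes as well as of lymphoma.

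Counts were made comparable as CPM (counts per 1000000 reads of a library size adjusted by TMM), a scaling that sets the bulk of miRNAs equal between libraries. miR-155 stood at 14698 CPM in DLBCL1, 3264 in DLBCL2, 5240 in DLBCL3, 6559 in DLBCL4, 11963 in DLBCL5 and 3658 in DLBCL6. In the healthy libraries it stood at 4302 CPM in Healthy2, 7091 in Healthy3, 6881 in Healthy4 and 4089 in Healthy5. DLBCL1 and DLBCL5 lay above every healthy library and DLBCL2 and DLBCL6 below every one, while DLBCL3 and DLBCL4 lay within the healthy range. All 4 healthy libraries lay within the DLBCL range. DLBCL1 had both the highest miR-155 and the fewest reads.

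**Figure D1:**
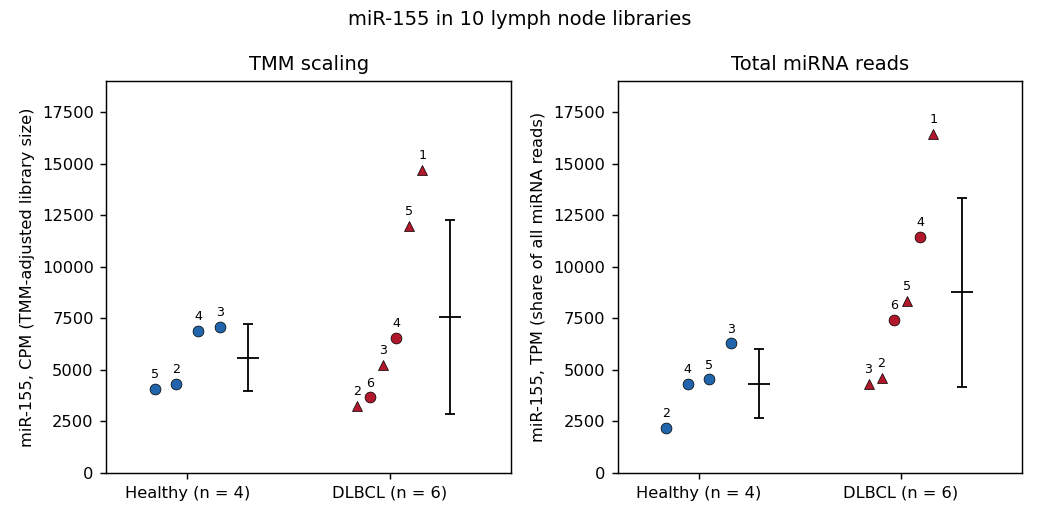
Level of miR-155 in each library, as CPM with TMM-adjusted library sizes (left) and as TPM, the share of all miRNA reads (right). Each point is a library with its replicate number, triangles are libraries of the higher Q30 group and circles of the lower, and the bars give the mean and SD. With TMM the healthy libraries (4089 to 7091 CPM) lie inside the DLBCL range (3264 to 14698 CPM).

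The 6 DLBCL libraries averaged 7564 ± 4699 CPM (mean ± SD) and the 4 healthy libraries 5591 ± 1616 CPM. For miR-155 the fitted log2 fold change came to 0.44 with a standard error of 0.47 (edgeR quasi-likelihood test, Benjamini-Hochberg adjusted p = 0.568). Its 95% interval ran from -0.58 to 1.45, which corresponds to 0.670-fold to 2.73-fold, so that neither equal levels nor a 2-fold rise lay outside the interval. On the mean of log2 CPM the groups differed by 0.25, and an exact two-sided permutation test over the 210 assignments of the labels gave p = 0.619. In bulk tissue, a change in the number of cells that express a miRNA and a change in its amount per cell cannot be told apart.

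miR-155 was not a DEM, which here means an edgeR adjusted p under 0.05 and a fold change over 2. Of the 247 miRNAs tested, 14 were DEMs (5.67%), 9 higher in DLBCL (3.64%) and 5 lower (2.02%), and for 32 (13%) the CPM of the groups did not overlap. The absolute log2 fold change of 169 of the tested miRNAs was larger than that of miR-155, and 159 had a smaller p. The median log2 fold change of all tested miRNAs was 0.13.

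The scale mattered more for miR-155 than the choice of test. As TPM, the share of all miRNA reads, miR-155 made 16435, 4592, 4317, 11456, 8353 and 7434 in DLBCL1 to DLBCL6. The healthy libraries had 2179, 6278, 4306 and 4537 TPM. On this scale DLBCL1, DLBCL4, DLBCL5 and DLBCL6 lay above every healthy library, and the groups still overlapped through DLBCL2 and DLBCL3. The mean was 8765 ± 4587 TPM in DLBCL (n = 6) and 4325 ± 1680 TPM in healthy nodes (n = 4).

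With library sizes set to the total of miRNA reads, the log2 fold change of miR-155 was 1.02 (95% interval 0.02 to 2.02) and the edgeR p was 0.0467, with an adjusted p of 0.142. The exact permutation test of mean log2 CPM on this scale gave a difference of 0.95 and p = 0.0571. The same scaling moved the median log2 fold change of all tested miRNAs to 0.82, and miR-155 was 0.20 above that median. With the reads of miR-148a left out of the total, the log2 fold change of miR-155 was 0.23 (adjusted p = 0.760). miR-148a took a smaller part of the total in every DLBCL library than in any healthy one. What underlies the higher share of miR-155 in DLBCL was not tested.

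Within the lower Q30 group, which holds 2 DLBCL and 4 healthy libraries, the log2 fold change of miR-155 was -0.14 (edgeR adjusted p = 0.841). With the Q30 group as a covariate it was -0.13 (edgeR adjusted p = 0.930). The 4 DLBCL libraries of the higher Q30 group averaged 8791 ± 5420 CPM and the other 2 averaged 5109 CPM. The higher Q30 group holds no healthy library, so that both fits compared the same 2 DLBCL libraries with the 4 healthy ones. Both values were smaller in size than their standard errors of 0.39 and 0.59, so that they show no turn of direction. Neither passed the test. Without DLBCL1, the library with the highest level, the log2 fold change was 0.13 (edgeR adjusted p = 0.905). Over 25 alternative fits the log2 fold change was positive in 23 and negative in the 2 by Q30 group. miR-155 was a DEM in 0 of these fits, and the edgeR, DESeq2 or limma adjusted p ran from 0.142 to 0.930.

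**Figure D2:**
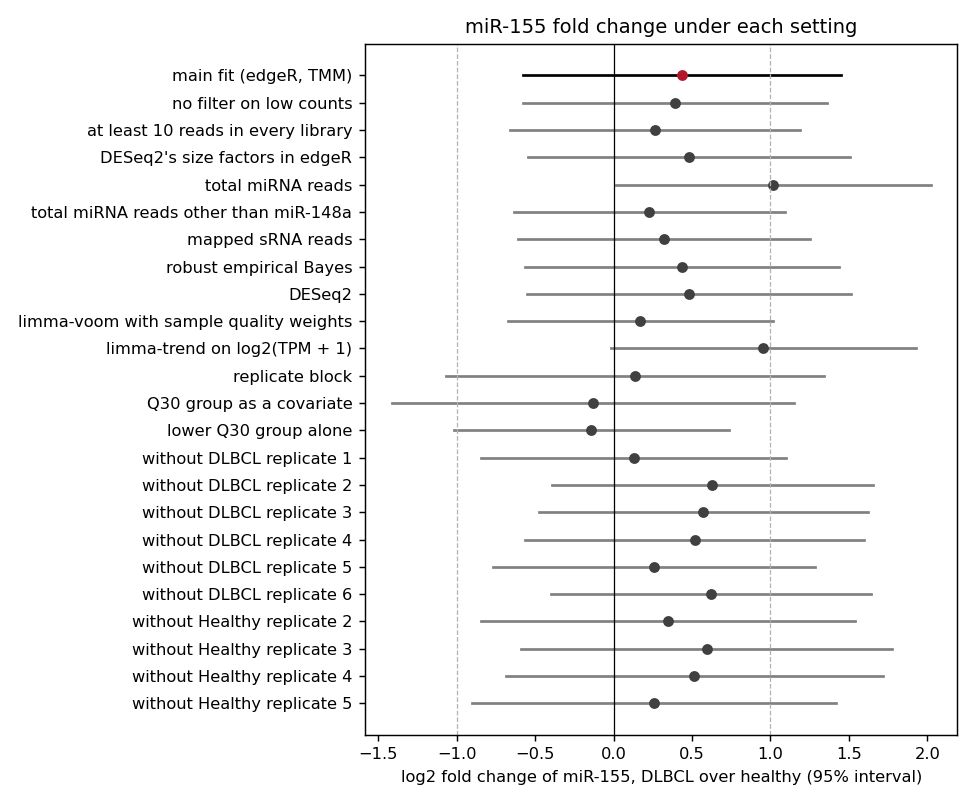
Log2 fold change of miR-155, DLBCL over healthy, with its 95% interval under the edgeR test and each alternative. Solid and dashed vertical lines mark no change and a 2-fold change. The values run from -0.14 in the lower Q30 group to 1.02 with total miRNA reads, and only the interval with total reads lies wholly above 0, from 0.02 to 2.02.

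miR-155 had a wider spread among the lymphomas than among the healthy nodes, and so had the median miRNA. Its highest DLBCL library was 4.50 times the lowest, against 1.73 times in healthy nodes, and the coefficient of variation of its CPM was 62.1% and 28.9%. The SD of log2 CPM was 0.89 in DLBCL and 0.43 in healthy nodes. Over all tested miRNAs the median SD was 1.07 and 0.54, and 156 of 247 miRNAs had a larger SD than miR-155 in DLBCL and 157 in healthy nodes. Among the 50 most abundant miRNAs, whose counting error is smallest, 20 varied more than miR-155 in each group. As TPM the contrast was smaller, with the highest library 3.81 times the lowest in DLBCL and 2.88 times in healthy nodes. The coefficients of variation of TPM were 52.3% and 38.8%. With total miRNA reads the SD of the log2 CPM of miR-155 was 0.75 in DLBCL and 0.64 in healthy nodes. The difference in spread between the groups was not tested.

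In the order of mean log2 CPM, miR-155 stood 16th in DLBCL and 17th in healthy nodes. Its neighbours in DLBCL were miR-363 above and miR-27b below, which differed from it by 0.23 and -0.10 with SDs of 1.53 and 1.44 over the 6 libraries. In healthy nodes miR-27b stood next above by 0.01 and miR-26b next below by -0.02, with SDs of 0.75 and 0.42 over the 4 libraries. These miRNAs were taken for being nearest in mean, and their differences were smaller than those SDs. The values are read counts per library and carry no correction for length, mature miRNAs being of similar length, or for the efficiency with which each miRNA is captured.

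A ratio of the reads of miR-155 to those of another miRNA in the same library needs no scaling between libraries. Ratios were taken to miR-150, a miRNA of mature resting lymphocytes that falls on activation, to miR-146a, an NF-kB-induced miRNA that restrains NF-kB signalling, to miR-21, and to miR-148a. miR-150, miR-146a and miR-148a were chosen with their lower level in the DLBCL libraries known, so that their ratios are given as a description with no test.

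The groups did not overlap in the ratio to miR-150, which was itself lower in DLBCL. For each read of miR-150 there were 17.4, 5.90, 3.02, 10.04, 7.96 and 4.76 reads of miR-155 in DLBCL1 to DLBCL6. In Healthy2 to Healthy5 there were 1.04, 0.797, 0.453 and 1.20. The lowest DLBCL value, in DLBCL3, was above the highest healthy value, in Healthy5. The mean log2 ratio was 2.81 ± 0.88 in DLBCL (n = 6) and -0.29 ± 0.62 in healthy nodes (n = 4), an 8.56-fold difference. This largely restates the fall of miR-150, a DEM with a log2 fold change of -2.97 (SE 0.50, edgeR adjusted p = 0.00687) at 7916 ± 5434 CPM in healthy nodes and 1009 ± 488 CPM in DLBCL.

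The ratio to miR-146a, also lower in DLBCL, did not overlap between the groups either. DLBCL1 to DLBCL6 had 3.70, 0.741, 3.09, 1.99, 1.999 and 1.40 reads of miR-155 per read of miR-146a. Healthy2 to Healthy5 had 0.497, 0.653, 0.623 and 0.424. miR-155 exceeded miR-146a in every DLBCL library but DLBCL2 and in 0 healthy libraries, and DLBCL2 was still above Healthy3, the highest healthy library. The mean log2 ratio was 0.93 ± 0.83 in DLBCL (n = 6) and -0.89 ± 0.29 in healthy nodes (n = 4), a difference of 1.81 or 3.51-fold. Most of it was the fall of miR-146a, a DEM with a log2 fold change of -1.46 (SE 0.35, edgeR adjusted p = 0.0397), at 10051 ± 1122 CPM in healthy nodes and 3660 ± 1493 CPM in DLBCL. Within the lower Q30 group the ratios to miR-150 and miR-146a differed by 3.08 and 1.63 on the log2 scale, without overlap.

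The ratio to miR-21, a miRNA of growth and inflammation, did not separate the groups. DLBCL libraries held 0.0254 to 0.121 reads of miR-155 per read of miR-21, with a median of 0.0444, and healthy libraries 0.0311 to 0.0597, with a median of 0.0439. The groups overlapped and differed by 0.26 on the log2 scale (exact two-sided permutation test, p = 0.619). Against miR-148a the difference was 1.95 or 3.86-fold, with a range of 0.0111 to 0.055 reads of miR-155 per read of miR-148a in DLBCL and 0.00296 to 0.0113 in healthy nodes. These groups overlapped, since DLBCL3 lay below Healthy3. Most of the difference was the lower level of miR-148a, which had a log2 fold change of -1.58 (SE 0.49, edgeR adjusted p = 0.0806) and was not a DEM.

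A ratio to miR-142, a miRNA of all leukocytes, was added after the data were seen, so that it too is given as a description with no test. DLBCL1 to DLBCL6 had 2.93, 0.770, 1.24, 1.26, 1.59 and 0.594 reads of miR-155 per read of miR-142, and Healthy2 to Healthy5 had 1.01, 1.30, 1.26 and 1.21. The healthy libraries lay close together inside the DLBCL range, and the difference of the mean log2 ratios was 0.04. DLBCL1 was far above the healthy libraries and DLBCL6 well below them.

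**Figure D3:**
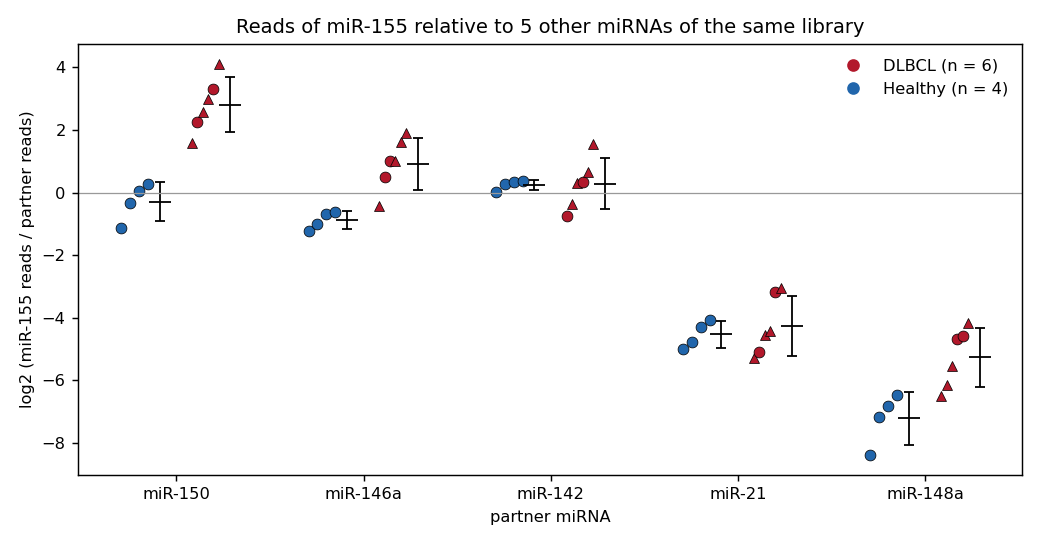
Log2 of the reads of miR-155 per read of 5 other miRNAs in the same library, for healthy (blue) and DLBCL (red) nodes. Triangles are libraries of the higher Q30 group, circles of the lower, and bars give the mean and SD. The groups are apart for miR-150 (8.56-fold) and miR-146a (3.51-fold) and overlap for miR-142, miR-21 and miR-148a.

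The miRNAs known beside miR-155 in B cells were read from 4 lists that together hold 21 miRNAs, and 4 of these were DEMs, beside 5.67% of all miRNAs tested. The lists share members, and they were chosen with earlier results of these data known.

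Of 7 miRNAs induced by NF-kB or Toll-like receptors, as miR-155 is, 0 were higher, 1 was lower and 6 did not pass the test (3.64% and 2.02% of all tested were higher and lower). miR-146a was the one that was lower. miR-146b, its close relative, had a log2 fold change of 0.95 (edgeR adjusted p = 0.286) and miR-21 one of 0.11 (edgeR adjusted p = 0.859). miR-9, which ran from 13.0 to 1854 CPM in DLBCL against 58.8 to 96.8 in healthy nodes, had 2.81 and did not pass the test (edgeR adjusted p = 0.121). It passed as higher with DESeq2 (3.01) and in the lower Q30 group (2.41). The remaining members miR-132, miR-147 and miR-187 had log2 fold changes of -0.20, 0.56 and 1.19. That of miR-187 rested on DLBCL5, at 112 CPM against medians of 5.66 in DLBCL and 12.3 in healthy nodes. It was -0.30 without DLBCL5 and -2.52 in the lower Q30 group, where it passed the test. The median of the list was 0.56, beside 0.13 over all miRNAs tested.

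Of 8 miRNAs reported as higher in human DLBCL of the activated B cell type, 1 was higher, 2 were lower and 5 did not pass the test, beside the same 3.64% and 2.02%. miR-363, of the miR-106a cluster, was higher with a log2 fold change of 2.14 (SE 0.49, edgeR adjusted p = 0.0397), at 3021 to 15430 CPM in DLBCL and 1653 to 2584 CPM in healthy nodes. miR-574 was lower by the same test, with a log2 fold change of -1.60 (SE 0.41, edgeR adjusted p = 0.0397), and miR-146a was the other. miR-221 and miR-222, a pair from one precursor transcript that lowers the cell cycle inhibitor p27, had -0.06 and 1.11 and miR-500 had 0.08, none of which passed. The median of the list was 0.10.

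Of the 3 germinal centre miRNAs, miR-28, miR-125b and miR-181b, 0 passed the test, with log2 fold changes of -0.36, -1.42 and -0.33. For miR-125b the groups did not overlap (41.4 to 629 CPM in DLBCL, 746 to 1516 CPM in healthy nodes), as for 13% of all miRNAs tested. Of the 6 miRNAs of mature resting lymphocytes, 1 was lower, miR-150, beside 2.02% of all tested. miR-342 (-0.77), miR-26a (-0.55), miR-29a (-0.35), miR-29b (0.64) and miR-29c (1.92) did not pass. For miR-26a too the groups did not overlap, at 12837 to 23486 CPM in DLBCL and 25384 to 28128 CPM in healthy nodes. miR-29c passed as higher with DESeq2 (1.96) and in the lower Q30 group (2.94). The medians of these lists were -0.36 and -0.45.

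**Figure D4:**
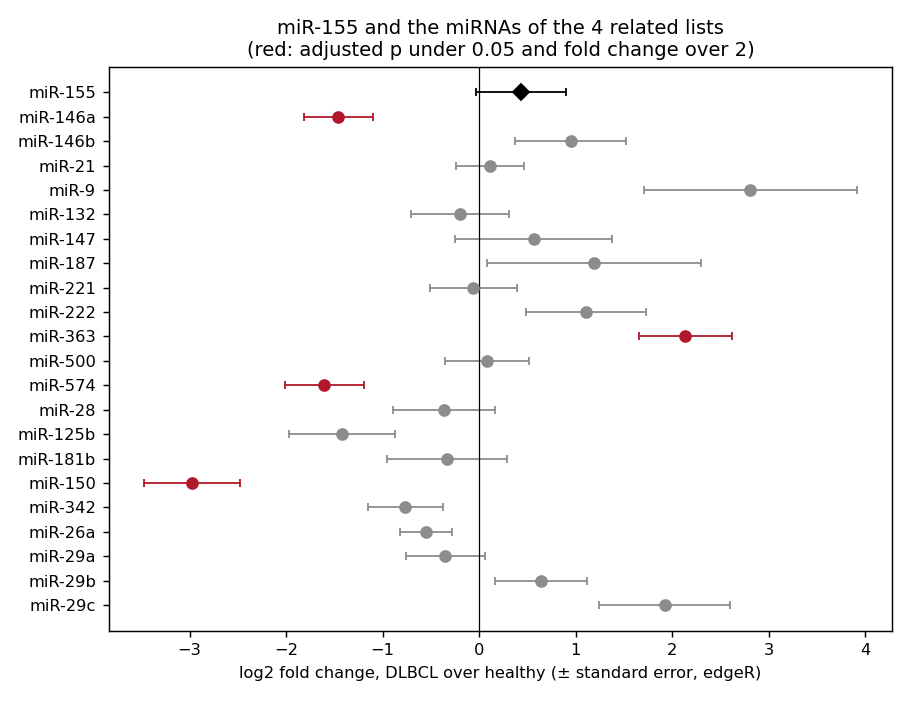
Log2 fold change, DLBCL over healthy, with its standard error (edgeR) for miR-155 (black diamond) and the 21 miRNAs of the 4 lists. Red points passed the test with a fold change over 2, which were miR-363 above 0 and miR-146a, miR-574 and miR-150 below it, and miR-155 lies at 0.44.

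For the DEMs of these lists, the calls varied more than the fold changes when libraries were left out. Of the 10 fits that each left out 1 library, miR-150 was a DEM in 9 and lost its call without Healthy4, at log2 fold changes of -3.21 to -2.45. miR-363 and miR-574 were DEMs in 5 and miR-146a in 4. miR-363 lost its call without DLBCL1 or any 1 healthy library, miR-574 without DLBCL1, DLBCL6, Healthy2, Healthy3 or Healthy4, and miR-146a without DLBCL1, DLBCL6 or any 1 healthy library. Over these 10 fits the log2 fold change stayed within 1.93 to 2.34 for miR-363, -1.90 to -1.44 for miR-574 and -1.66 to -1.28 for miR-146a. In the lower Q30 group alone, 6 of the 21 miRNAs changed sign, none of them a DEM over all 10 libraries. Of these 6, miR-187 passed the test within the lower Q30 group, at -2.52. With total miRNA reads, miR-150 (-2.34) and miR-363 (2.84) were still DEMs, while miR-146a (-0.80) and miR-574 (-0.77) were not.

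The level of miR-155 over the 10 libraries was compared with that of the 246 other miRNAs tested by Pearson's r of log2 CPM. The libraries fall into 2 groups and share the TMM scaling, and the values are given as a description. The 5 miRNAs with the highest r were miR-874 (0.78), miR-505 (0.71), miR-1843 (0.71), let-7c (0.68) and miR-499 (0.66), and the median over all was 0.03. Of these 5, miR-874, miR-505 and miR-1843 were at low levels, with means of 10.4, 4.25 and 12.1 CPM in DLBCL. In healthy nodes their means were 9.95, 3.07 and 4.89 CPM. The means of let-7c and miR-499 in DLBCL were 1161 and 1244 CPM. The lowest were miR-134 (-0.85), miR-433 (-0.81) and miR-494 (-0.79), which averaged under 4 CPM in both groups and so had few reads. miR-134 stood at 0 CPM in DLBCL5 and miR-433 at 0 CPM in DLBCL1. With total miRNA reads the r of these miRNAs was only -0.26, -0.56 and -0.32. Over the 6 DLBCL libraries alone the highest were let-7c (0.86), miR-874 (0.83) and miR-425 (0.81).

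miR-874 and let-7c were high in DLBCL1 and DLBCL5 and low in DLBCL6, as miR-155 was. Both were at their lowest in DLBCL3, at 3.25 and 591 CPM, where miR-155 was in the middle of its range, and miR-155 was at its lowest in DLBCL2. None of the 5 was a DEM. Their place was not stable, since 2 of the 5 were among the top 5 by Spearman's rho, 2 with total miRNA reads, and between 1 (without DLBCL3) and 5 when 1 library was left out. Of the miRNAs induced by the same signals, r over the 10 libraries was 0.08 for miR-146a, 0.25 for miR-21 and -0.09 for miR-146b. Over the 6 DLBCL libraries, without the difference between the groups, it was 0.44, 0.28 and -0.22. For miR-150 and miR-142 it was 0.06 and 0.53 over the 10 libraries and 0.38 and 0.41 over the 6.

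**Figure D5:**
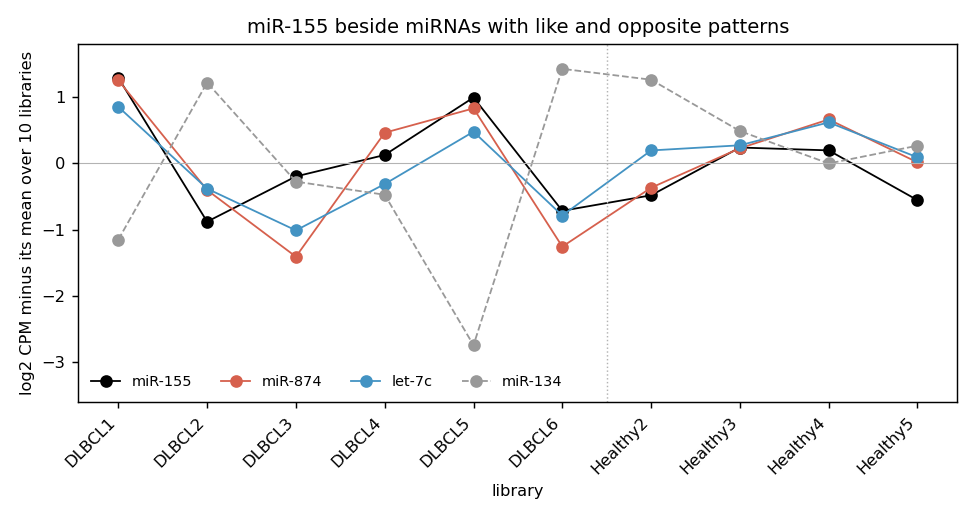
Log2 CPM of miR-155, miR-874, let-7c and miR-134 in each library, minus the mean of that miRNA over the 10 libraries. The dotted line parts DLBCL from healthy libraries. miR-874 (r = 0.78) and let-7c (r = 0.68) rise and fall with miR-155 in most libraries. On this scale miR-134, with few reads, runs against it (r = -0.85), while with total miRNA reads its r is -0.26.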

How the data were processed

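Per the paper's methods, reads were cleaned by the authors and mapped with Bowtie 0.12.9 (build CanFam3.1 per the submitters' processing notes), reads of repeats and structural RNAs were discarded, and mature miRNAs were counted with miRDeep2. The authors deposited raw read counts of 320 miRNAs and TPM values, which are counts per 1000000 miRNA reads of a library. Their differential expression used DESeq2 1.12.0. No deposited column of fold changes or p-values was used.

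From the counts, edgeR 4.0.16 in R 4.3.3 was run with TMM, filterByExpr by group (247 miRNAs left) and quasi-likelihood F tests, adjusted by Benjamini-Hochberg. log2 CPM used a prior count of 2, and 0.5 was added to both counts of a ratio. Alternatives used DESeq2 1.42.0, limma 3.58.1 (trend on log2 of TPM plus 1, or voom with quality weights), other library sizes and filters, the Q30 group, and each library left out. The Q30 group came from the study's read statistics. Permutation tests used scipy 1.17.1 and were two-sided. The test was tried on simulated data. Libraries of 1 group were not duplicates (smallest chi-squared per degree of freedom 2115).

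The miRNAs named are miR-155, the members of the lists, its neighbours by level, the 5 with the highest and 3 with the lowest r, the 3 with the highest r in DLBCL, and miR-148a. The miRNA, lists and rules were chosen with earlier results of these data known. One further list is not reported here. Names were matched to UU_Cfam_GSD_1.0 for neighbouring genes only. Each library is 1 dog, so that p-values measure the spread between dogs. Counting intervals cover counting error only.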

Additional observations from a re-analysis of the deposited data

Results flagged for a closer look

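In 6 of 80 groups of libraries examined, 1 library stood apart from the others by Dixon's criterion. Chance meets it in about 1 group in 20 for independent groups of normally distributed values. That rate need not hold here, since the groups include several measures of the same miR-155 values. None of the 6 was for the level of miR-155. All were single DLBCL libraries that lay above the other 5. DLBCL5 held 4 of them, with miR-21 at 257265 CPM, miR-499 at 3172 CPM, miR-187 at 112 CPM and miR-1843 at 43.1 CPM. miR-28 stood at 2158 CPM in DLBCL3 and miR-342 at 129 CPM in DLBCL1. miR-499 and miR-1843 are among the 5 miRNAs with the highest r with miR-155, which was itself the second highest of the series in DLBCL5.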

How the results depend on the processing

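The log2 fold change of miR-155 was -0.14 in the lower Q30 group alone and -0.13 with the Q30 group as a covariate. These 2 fits compared the same 2 DLBCL libraries with the 4 healthy ones, and both values were within their standard errors. In the other 13 fits that kept all libraries or were added after seeing the data, the value was above 0, at 0.14 to 1.02. miR-155 did not pass the test in any. The log2 ratio to miR-142 differed by 0.04. Leaving out 1 library gave 0.13 (DLBCL1) to 0.63 (DLBCL2), with edgeR adjusted p from 0.359 to 0.905. Without DLBCL1 and Healthy3 (the highest by TPM) it was 0.27, and without DLBCL3 and Healthy2 (the lowest) 0.41. DEMs numbered 14, and 8 with DESeq2's size factors, 23 with total reads, 7 with mapped reads or the Q30 covariate, 41 with DESeq2, 46 with voom or in the lower Q30 group, 1 with the block and 1 (without Healthy4) to 23 (without DLBCL4) with 1 library left out. They fell to 6 or fewer also without DLBCL1 or any other healthy library and rose to 22 without DLBCL3. DEMs in the lists of related miRNAs numbered 4, and 2 with total reads, mapped reads, limma-trend or the Q30 covariate. They numbered 6 with DESeq2 and 7 with voom or in the lower Q30 group. With the block they numbered 0, and with 1 library left out 0 (without Healthy4) to 5 (without DLBCL3). The cause was not tested.

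The replicate numbers 2 to 5 are shared by the groups, but deviations of same-numbered libraries correlated by 0.26, -0.01, -0.30 and -0.33, so that they do not pair the dogs. With the replicate number as a block the log2 fold change of miR-155 was 0.14 (edgeR adjusted p = 0.927). Over 4 such pairs the log2 ratio differed by 2.91 for miR-150 and 1.68 for miR-146a and by 1.505 for miR-148a. In the lower Q30 group the differences were 3.08, 1.63 and 2.59. Leaving out 1 library gave 2.81 to 3.34 for miR-150, 1.62 to 2.09 for miR-146a, 0.02 to 0.47 for miR-21 and 1.56 to 2.20 for miR-148a. Of the 5 miRNAs most like miR-155, 2 stayed by rho or total reads, 3 in DLBCL alone and 1 to 5 with 1 library left out, while its median rank stayed at 17. The lowest count of miR-155 was 75629, so that its counting error was small against the spread between dogs.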
